A study of Anopheles gambiae with 60 samples.

Results

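The X-linked probe sets expressed throughout the adult soma of the malaria mosquito *Anopheles gambiae* are described here. A probe set, a group of short oligonucleotides on the array read as 1 value, was a member if its identifier placed it on the X chromosome and its level reached log2 5 on at least 3 of 4 arrays in each of 10 somatic groups (head, carcass, midgut, Malpighian tubules and salivary gland of females and of males). Of 1403 X-linked probe sets 150 qualified (10.7%), out of 16884 *Anopheles* probe sets in all. The same filter kept 1848 of 13543 probe sets of the autosomal arms 2L, 2R, 3L and 3R (13.6%), and these served as the comparison set. The members were chosen by their somatic levels, which are therefore given only as a description, whereas the ovary, testis, accessory gland and whole-body arrays played no part in the choice.

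Female mosquitoes carry a pair of X chromosomes and males a single X with a Y. In many animals with such a difference in dose, X-linked transcription is adjusted between the sexes, a process called dosage compensation. The best known form is in *Drosophila melanogaster*, where the single male X is transcribed at a raised rate. The germ line can follow other rules, and in the fly testis many genes of the X are expressed at a low level. If transcript level followed the number of X copies alone, somatic members would lie at a female minus male difference of 1 on the log2 scale, that is a 2-fold difference.

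The study hybridised 60 Affymetrix arrays. They fall into 15 groups with 4 replicates apiece, which the methods call biological: the 10 somatic groups, female and male whole body, ovary, testis and male accessory gland. All mosquitoes came from a single strain with no treatment other than feeding, and no transgene is named. According to the methods, siblings were separated as pupae and kept unmated, females took blood at 3 days of age, and tissues of both sexes were dissected 24, 48 and 72 h after that meal and their RNA combined, from at least 10 mosquitoes at each time. The sample labels differ, with mosquitoes 5 days old and both sexes given blood. Feeding and sex cannot be told apart in any female against male comparison. Carcass is what was left of thorax and abdomen, heads held some fat body, salivary glands were rinsed of most but not all of it, and ovaries kept the common oviduct. Each sample is a mixture of cell types, so fewer cells of a type and less RNA per cell cannot be told apart. Values are log2 intensities that the authors normalised within each tissue, so tissues do not share a common scale. The members as a set are therefore read beside the autosomal set on the same arrays, and a difference of a single member between tissues also carries the separate normalisation of those tissues. Levels of different probe sets depend on their oligonucleotides and are not compared with each other.

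Array medians over all probe sets ran from 5.32 to 5.75 in linear intensity, before the log2 step. Between 3501 and 5779 *Anopheles* probe sets per array lay above the limit of log2 5. Arrays of a group correlated at 0.965 or more, except for the ovary, where the lowest correlation was 0.932. The 23 listed marker genes covered fat body, muscle, head, salivary gland, midgut, gonads, accessory gland, and sex determination and dosage compensation. Of these, 2 could be matched to a probe set, and neither was a member. The fat body marker AGAP001826 (lipophorin, which carries lipid in the haemolymph) was higher in females by 2.94 in the salivary gland (adjusted p = 0.00115) and by 2.78 in the Malpighian tubules (adjusted p = 0.00418). The muscle marker AGAP010147 (myosin heavy chain) was lower in female than in male carcass, at -2.27 (adjusted p = 0.00595). The labelled tissues could not be checked further.

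Of the 150 members, 52 could be matched to a gene identifier through their relative abundance over tissues. The 153 X-linked genes matched in this way span a block of identifier numbers into which 0 of 1003 matched autosomal genes fall. No sequences, coordinates or gene functions were used for the members, so members are named by probe set with the gene where it was matched. The identifiers of 58 members mark a coding sequence (38.7%, against 54.2% of the autosomal set), 30 an untranslated region (20%, against 19.5%) and 62 neither (41.3%, against 26.3%). The suffixes _s_at or _x_at, which mark probe sets that can also bind other transcripts, were carried by 6 members (4%, against 10.7%). The members hold 144 distinct identifier numbers, since 6 numbers each occur in a pair of probe sets, so that 12 members are not independent of one another.

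The limit divided probe sets of almost the same level. Just inside it lay Ag.X.203.0_CDS_at (AGAP000273), whose deciding value was 5.01 in female midgut, and Ag.X.1141.0_at at 5.02 in female carcass. Just outside lay Ag.X.1281.0_at at 4.99 in male salivary gland and Ag.X.273.1_CDS_a_at (AGAP000396) at 4.98 in male midgut. Altogether 26 X-linked probe sets failed in 1 group only, most often male midgut (7), male salivary gland (6) and male head (4), while 956 failed in all 10. That 1 group was male for 17 of the 26 (65.4%), and for 118 of 273 such autosomal probe sets (43.2%). Because detection in both sexes was required, a probe set silent in 1 sex could not be a member. Large sex differences could remain, and in the Malpighian tubules those of members ran from -2.28 to 4.39. Failing in 1 group is not silence, since Ag.X.1281.0_at and Ag.X.273.1_CDS_a_at had means of 5.22 and 5.17 in the group they failed. The counts by sex therefore do not show which sex differences were left out.

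The somatic sex differences of the members, whose somatic levels had chosen them, are given as a description. The median female minus male difference of the members was 0.02 in the head, -0.10 in the carcass, -0.08 in the midgut, -0.03 in the Malpighian tubules and -0.13 in the salivary gland. The autosomal medians were 0.01, -0.13, 0.00, -0.02 and 0.05 in the same order. X-linked minus autosomal, the difference was therefore between -0.08 and 0.03 in 4 tissues, and in the salivary gland, where the medians had opposite signs, it was -0.18. Members with a female excess of at least 1 numbered 8 in the head, 12 in the carcass, 7 in the midgut, 9 in the Malpighian tubules and 13 in the salivary gland, and those with a male excess of at least 1 numbered 3, 15, 19, 12 and 18. In the midgut this was 4.67% and 12.7% of members, against 9.42% and 10.2% of the autosomal set, and in the salivary gland 8.67% and 12%, against 10.01% and 6.39%. The head had 5.33% and 2%, against 4.06% and 1.89%, and the carcass 8% and 10%, against 14.0% and 10.8%. For the Malpighian tubules the shares were 6% and 8%, against 6.11% and 6.55%.

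**Figure D1:**
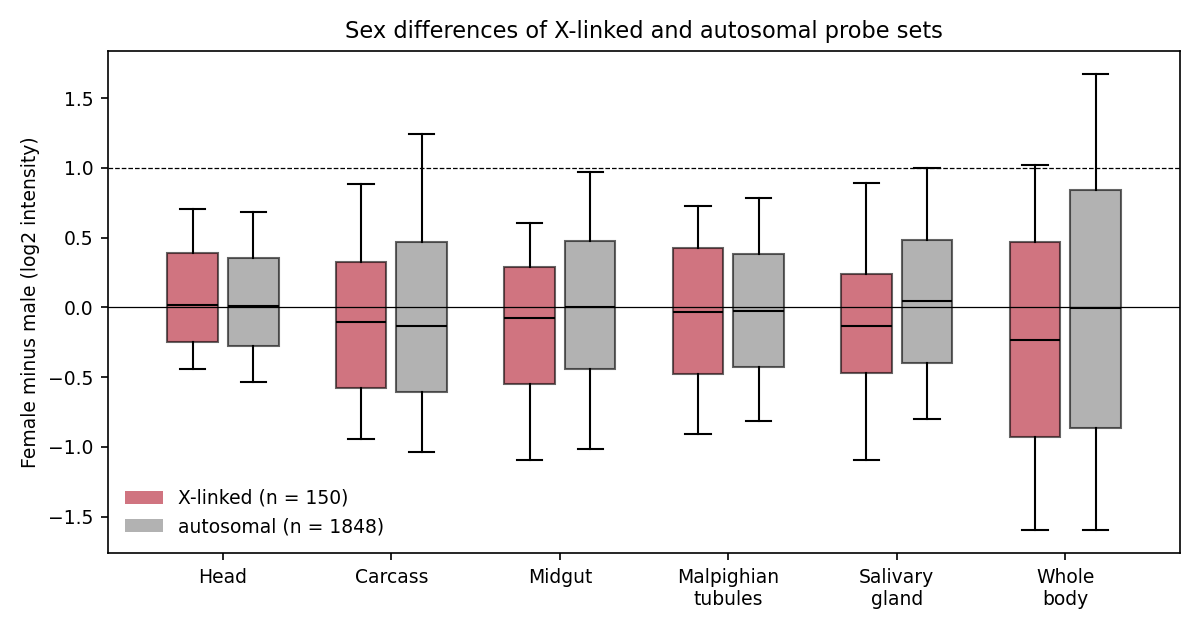
Female minus male difference in log2 intensity (y axis) of the 150 X-linked members (red) and 1848 autosomal probe sets (grey) in each tissue and the whole body. Boxes span the quartiles, whiskers the 10th to 90th percentiles and black lines the medians; the X-linked medians lie between -0.24 and 0.02, below the dashed line at 1.

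Each array was also given a score, the median over members of its log2 value minus the mean of the female and male group means, less the same median over the autosomal set. Scores of females and males overlapped in the head, carcass, midgut and Malpighian tubules, with differences of 0.026 ± 0.044, -0.047 ± 0.059, -0.069 ± 0.040 and 0.017 ± 0.052 (SE, 4 arrays against 4). In the salivary gland the female arrays scored -0.071, -0.063, -0.038 and -0.130 and the male arrays 0.074, 0.067, 0.101 and 0.077. All 4 female arrays thus lay below all 4 male arrays, with a difference of -0.155 ± 0.021. The quartiles of the members there were -0.47 and 0.24. With a limit of log2 6 the X-linked minus autosomal difference of the medians was -0.08 in place of -0.18, and the fat body marker AGAP001826 moved the other way between the sexes in these glands. Its part in the result was not tested.

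**Figure D2:**
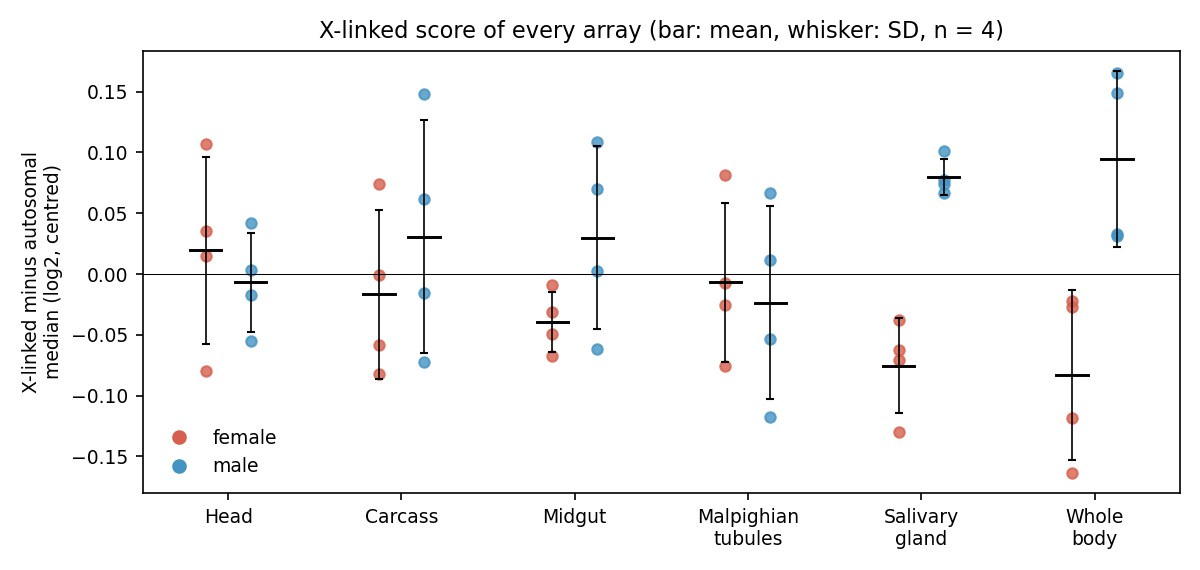
Score of every array (points; y axis in log2, X-linked minus autosomal median, centred within each comparison) for females (red) and males (blue), with the mean and SD of 4 arrays. Sexes overlap in 4 somatic tissues and do not overlap in the salivary gland (difference -0.155) and the whole body (difference -0.177).

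Single members were tested in the fit to all detected *Anopheles* probe sets with limma, and one was called sex-biased at a 2-fold difference with an adjusted p under 0.05. In the head 4 members were female-biased (2.67%) and 2 male-biased (1.33%), where 7.06% and 3.54% of all tested probe sets were called. In the carcass 11 were female-biased (7.33%) and 15 male-biased (10%), against 15.1% and 18% of all tested. The midgut had 7 female-biased (4.67%) and 18 male-biased members (12%), against 14.3% and 16.3%. These shares lay below those of all tested probe sets in each of the 3 tissues. The autosomal set, trimmed by the same filter, had 3.46% and 1.57% in the head, 13.9% and 10.8% in the carcass and 9.31% and 9.69% in the midgut.

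In the Malpighian tubules 9 members were female-biased (6%) and 11 male-biased (7.33%), against 7.8% and 10.6% of all tested probe sets and 5.95% and 6.33% of the autosomal set. With all 60 arrays quantile normalised and members chosen anew, 8.05% were female-biased and 5.17% male-biased, with no autosomal shares given beside them. In the salivary gland 13 were female-biased (8.67%) and 17 male-biased (11.3%), against 16.2% and 13.1% of all tested and 9.74% and 6.22% of the autosomal set. Members were chosen anew when 1 replicate was left out. The male-biased share of the salivary gland was then 6.21% without replicate 2, and the female-biased share of the head 1.27% without replicate 1. The male-biased calls of the head were also unstable, with between 0% and 1.24% of such members called.

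Sex-biased members were mostly called in 1 tissue, at a share near that of the autosomal set. Over the 5 tissues 73 members were called in at least 1 (48.7%, against 48.5% of the autosomal set), 47 of them in only 1 (31.3%, against 29.1%), and 77 in none. The female minus male difference was above 0 in all 5 tissues for 16 members (10.7%, against 10.6%) and below 0 in all 5 for 21 (14%, against 10.3%). For 77 members it stayed under 1 in every tissue (51.3%, against 51.2%), and for 17 under 0.5 (11.3%, against 11.4%). Averaged over the 5 tissues, the median member stood at -0.06 and the median autosomal probe set at -0.02. The sex difference varied between somatic tissues for 109 members (72.7%) by a limma F-test of sex by tissue at an adjusted p under 0.05, where 71.1% of all tested probe sets and 73.6% of the autosomal set were called.

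Only 1 member was called female-biased in all 5 somatic tissues (0.667%, against 0.108% of the autosomal set), Ag.X.76.1_UTR_s_at (AGAP001065). Its suffix warns that it can bind more than 1 transcript. In the salivary gland it read 12.22, 12.24, 10.94 and 10.82 in females and 9.31, 7.56, 7.74 and 8.34 in males. In the head it read 11.64, 12.23, 11.33 and 11.52 in females and 10.01, 9.84, 9.34 and 10.11 in males. The sexes did not overlap in either tissue. This member and those of the next paragraphs were picked by their somatic calls. Their somatic adjusted p and the separation of their arrays therefore describe them and are not separate support. The female arrays of replicates 1 and 2 were the highest in the salivary gland. The difference was 3.32 ± 0.47 there (SE, 9.95-fold, adjusted p = 0.000519), 1.85 ± 0.24 in the head (adjusted p = 0.000494), 1.85 ± 0.24 in the carcass (adjusted p = 0.000124), 1.87 ± 0.20 in the Malpighian tubules (adjusted p = 9.38e-05) and 1.17 ± 0.32 in the midgut (adjusted p = 0.0125). The midgut call was lost without replicate 2. In the whole body the difference was 0.71 ± 0.26, under 2-fold.

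Ag.X.75.0_CDS_at (AGAP000654) was the 1 member called female-biased in 3 tissues (0.667%, against 1.89% of the autosomal set). In the midgut it read 9.16, 9.42, 9.53 and 9.12 in females and 7.64, 7.46, 7.41 and 7.87 in males, so that every female array exceeded every male array. The difference was 1.71 ± 0.18 in the midgut (adjusted p = 2.90e-05) and 1.74 ± 0.30 in the carcass (adjusted p = 0.000721). The head call (1.07 ± 0.33, adjusted p = 0.0465) was lost whichever replicate was left out. In the whole body the difference was -0.03 ± 0.32 (adjusted p = 0.934).

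A further 5 members were female-biased in 2 tissues (3.33%, against 6.28% of the autosomal set). They were Ag.X.89.0_CDS_a_at (AGAP000023), Ag.X.307.0_CDS_a_at (AGAP001021), Ag.X.169.0_UTR_a_at (AGAP000752), Ag.X.202.0_CDS_a_at and Ag.X.133.0_CDS_a_at (AGAP000672). All of them were called in the salivary gland, with differences from 1.29 to 2.03, and their second tissue was midgut or Malpighian tubules. Ag.X.89.0_CDS_a_at had the largest, 2.55 ± 0.39 in the midgut (5.84-fold, adjusted p = 0.000478), yet was male-biased in the whole body at -1.88 ± 0.24 (adjusted p = 2.21e-05). Its salivary call was lost without replicate 4, and the tubule call of Ag.X.169.0_UTR_a_at (AGAP000752) without replicate 1 or 2.

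No member was male-biased in 4 tissues or in 5, against 0.812% and 0.216% of the autosomal set, and 4 were in 3 (2.67%, against 1.30%). Ag.X.135.0_CDS_at showed the clearest pattern: in the salivary gland females read 7.29, 7.49, 7.38 and 7.21 and males 9.63, 10.10, 9.50 and 10.13. In the whole body females read 6.81, 6.51, 6.99 and 6.44 and males 9.64, 9.44, 9.83 and 9.81. The sexes lay far apart in both, at -2.50 ± 0.19 (5.64-fold, adjusted p = 1.30e-05) and -2.99 ± 0.19 (7.96-fold, adjusted p = 1.02e-07). It was also male-biased in the carcass (-1.87 ± 0.26, adjusted p = 0.000185) and the midgut (-1.25 ± 0.26, adjusted p = 0.00300), the last not without replicate 1.

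Ag.X.82.0_UTR_a_at was male-biased in the same 3 tissues, most in the salivary gland (-2.60 ± 0.58, adjusted p = 0.00636). Its carcass values were 11.64, 11.78, 11.80 and 11.83 in females and 13.09, 12.89, 13.02 and 13.09 in males, tight within each sex and 1.26 apart (adjusted p = 9.92e-05). Ag.X.1198.0_at was male-biased in carcass, midgut and salivary gland with the largest difference in the carcass (-1.27 ± 0.21, adjusted p = 0.000656), and lost the calls in midgut and salivary gland without replicate 1 or 2. Ag.X.1284.0_at was male-biased in head, carcass and midgut with differences from -1.20 to -1.11, and each of these calls was lost in at least 2 of the 4 sets that leave out 1 replicate. In the whole body the direction was opposite, with Ag.X.1284.0_at higher in females by 1.34 ± 0.28 (adjusted p = 0.00117).

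The whole body, which includes the gonads, differed from the dissected somatic tissues. Here 16 members were female-biased (10.7%) and 36 male-biased (24%), against 30.6% and 28.5% of all tested probe sets and 21.4% and 22.1% of the autosomal set. The median difference was -0.24 for members and 0.00 for the autosomal set. Single autosomal arms departed about as much: against the other 3 arms, 2R differed by 0.253 and 3R by -0.225, compared with -0.232 for the X. Female arrays scored -0.027, -0.022, -0.164 and -0.119 and male arrays 0.033, 0.031, 0.149 and 0.165, so the sexes did not overlap, but replicates 1 and 2 of each sex lay close to 0 and replicates 3 and 4 farther out. Without replicate 3 the X-linked minus autosomal difference was -0.09 in place of -0.23, without replicate 4 it was -0.15, and among members with a mean somatic level of at least log2 7 it was -0.05.

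The whole-body calls were set beside the level in the ovary, a part of the female body that was measured on other arrays. Of the 16 female-biased members 12 were also higher in ovary than in female carcass (75%, against 77.0% of 395 female-biased autosomal probe sets) and 0 were lower, while 29 of all 150 members were higher in ovary. Of the 36 male-biased members 22 were lower in ovary (61.1%, against 59.3% of 408 male-biased autosomal probe sets) and 0 were higher, while 42 of all members were lower. These shares were near the autosomal ones. In at least 1 of the 5 somatic tissues 6 of the 16 female-biased members were also female-biased (37.5%, against 43.5%), and 19 of the 36 male-biased members were also male-biased (52.8%, against 57.8%).

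Ag.X.120.0_CDS_at (AGAP001045) had the largest female excess in the whole body. It read 9.38, 9.91, 9.96 and 9.84 in female and 5.88, 6.24, 5.85 and 5.96 in male whole body, and 10.67, 10.19, 10.58 and 10.67 in the ovary. Ovary and female body were thus high and the male body low, with no overlap between the sexes (3.79 ± 0.19, 13.8-fold, adjusted p = 1.80e-08). In the carcass the female excess was 1.58 ± 0.19 (adjusted p = 8.50e-05), and it was under 2-fold in the other somatic tissues.

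The members that differed least between the sexes were Ag.X.1305.0_at, Ag.X.1086.1_a_at, Ag.X.1537.0_at, Ag.X.152.0_UTR_at and Ag.X.1289.0_a_at. None was called in a somatic tissue. Ag.X.1086.1_a_at read the same value, 5.53, on all 4 female salivary gland arrays, and 5.57 on all 4 male head arrays, so that its small differences there carry no measured spread. It was the 1 member of 150 with identical values throughout a somatic group, as were 2 of the 1848 autosomal probe sets. Of these 5 members 4 were called lower in testis than in male carcass. Ag.X.152.0_UTR_at was detected in both (-1.23 ± 0.18), while the others were not detected in testis, with male carcass at least 2.07-fold higher for Ag.X.1086.1_a_at, 2.92-fold for Ag.X.1289.0_a_at and 8.11-fold for Ag.X.1537.0_at. The exception was Ag.X.1305.0_at, which was higher in ovary than in female carcass by 1.39 ± 0.33 (adjusted p = 0.00330).

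In the testis the members were low. Compared with male carcass their median difference was -1.17, against 0.02 for the autosomal set, and the quartiles ran from -1.99 to -0.60 against -1.16 to 1.15. Of the members 135 of 150 (90%) lay below their male carcass level, against 49.5% of the autosomal set. By limma 84 members were lower in testis (56%) and 2 higher (1.33%), where 26.4% and 49.5% of all tested probe sets and 27.7% and 28.4% of the autosomal set were called. With members chosen anew, the share higher was 2.48% without replicate 2 and 2.53% without replicate 4. Testis arrays scored -0.695, -0.748, -0.517 and -0.531 and male carcass arrays 0.710, 0.538, 0.590 and 0.660, and the arrays of the groups lay far apart (-1.248 ± 0.069). The 4 autosomal arms had medians of 0.07 (2L), 0.11 (2R), -0.02 (3L) and -0.15 (3R), so that each arm set against the other 3 differed by -0.22 to 0.11, compared with -1.19 for the X.

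Members lay below the autosomal set at every level, although the distance to the autosomal set depended on the level. Split by level in male carcass into 3 sets of 50, the dimmest members (5.19 to 7.04) had a median of -0.87 in testis minus male carcass, and autosomal probe sets of that range had 1.05. For the middle set the medians were -0.998 and 0.169, and for the brightest (8.79 to 13.57) -1.70 and -1.12. Male carcass enters both the grouping and the difference, which lowers bright and raises dim probe sets in either set.

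Detection, which needs no second tissue, gave the same order. In the testis 129 members were detected (86%, against 98.2% of the autosomal set), compared with 133 in the ovary (88.7%, against 95.1%) and 146 in the accessory gland (97.3%, against 97.6%). With all 60 arrays quantile normalised and the members chosen anew on those values, 61.5% of them were detected in testis. That set of members differs and no autosomal share is given for it, so the lower share is not read as particular to the X. Among all 1403 X-linked probe sets, whether or not they were members, 14.8% were detected in testis against 38.0% of all autosomal ones. That was the lowest X-linked and the highest autosomal share of any of the 15 groups, the X-linked share in the others running from 17.3% to 22.7%. Of the 21 members not detected in testis, 19 were detected in the accessory gland and 11 in the ovary, and for 13 all 4 testis arrays lay under the limit.

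**Figure D3:**
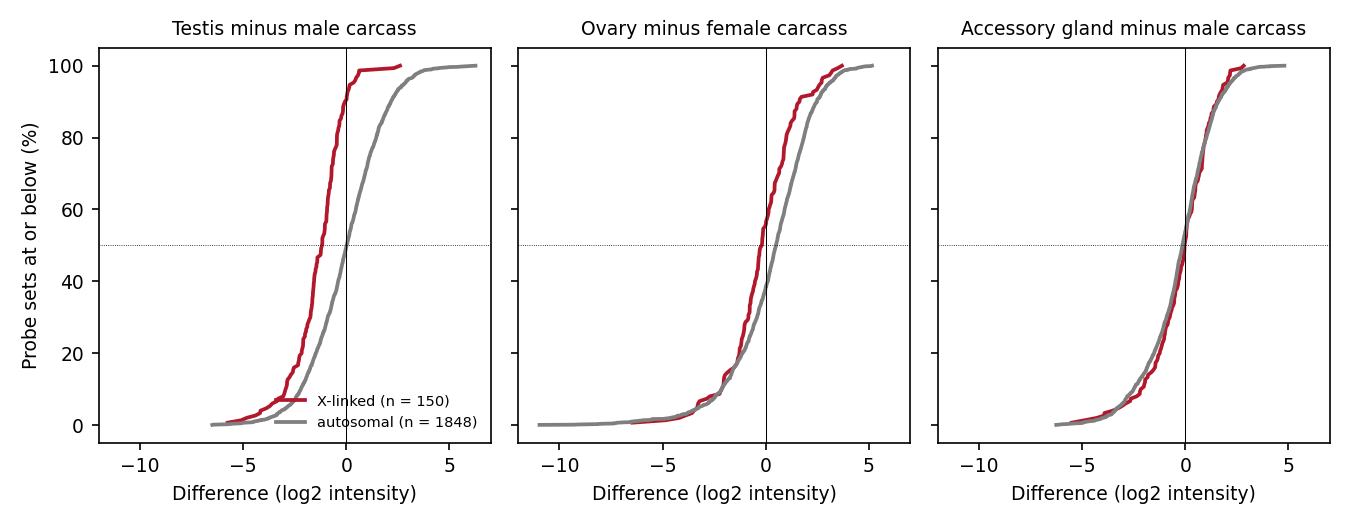
Cumulative share of probe sets (y axis, percent) at or below a given difference in log2 intensity (x axis) for testis and accessory gland against male carcass and ovary against female carcass; red, 150 X-linked members, grey, 1848 autosomal probe sets. The X-linked curve lies to the left in testis (medians -1.17 and 0.02), less so in ovary (-0.19 and 0.49), and close to the autosomal curve in accessory gland (-0.03 and -0.14).

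Ag.X.1537.0_at was under the limit in testis and above it in every other group. It read 3.43, 3.51, 3.60 and 3.94 in testis, 8.02, 8.34, 8.01 and 7.72 in male carcass, 9.29, 8.84, 9.27 and 9.18 in accessory gland and 9.58, 9.06, 9.47 and 9.09 in ovary. Testis was the only group under the limit, and its arrays did not overlap with any other. Measured against the limit, male carcass was at least 8.11-fold higher (fitted difference -4.40, adjusted p = 3.29e-09).

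The largest difference belonged to Ag.X.107.0_UTR_at (AGAP000749), at 5.31, 5.92, 5.44 and 6.32 in testis and 11.50, 11.37, 11.60 and 11.50 in male carcass (-5.75 ± 0.22, 53.7-fold, adjusted p = 2.56e-09). Ag.X.82.0_UTR_a_at was lower by 34.2-fold (-5.09 ± 0.18) and Ag.X.8.1_a_at by 28.5-fold (-4.83 ± 0.73), the last with male carcass arrays as far apart as 9.65 and 12.20. Ag.X.223.0_CDS_a_at was at -4.18 and its partner of the same identifier number, Ag.X.223.1_a_at, at -3.88. Ag.X.223.0_CDS_a_at read 9.54, 8.90, 9.25 and 9.22 in testis against 13.85, 13.14, 13.29 and 13.34 in male carcass, so it was bright in both and 18.1-fold apart. Low testis values were therefore found both at and far above the detection limit.

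Only Ag.X.1694.0_at and Ag.X.1625.0_at were called higher in testis than in male carcass. Ag.X.1694.0_at read 8.02, 8.53, 8.46 and 8.75 in testis, 5.98, 5.50, 5.71 and 6.15 in male carcass and 9.20, 8.60, 8.99 and 10.22 in ovary. Ag.X.1625.0_at read 9.51, 9.63, 9.30 and 9.55 in testis, 7.34, 7.45, 7.04 and 6.91 in male carcass and between 10.45 and 11.91 in ovary. Both were high in the gonads of either sex, and no testis array overlapped a somatic one, with testis above male carcass by 2.61 ± 0.20 (adjusted p = 5.38e-07) and 2.31 ± 0.15 (adjusted p = 2.06e-07), and both were female-biased in the whole body, at 3.04 ± 0.16 and 3.20 ± 0.21.

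**Figure D4:**
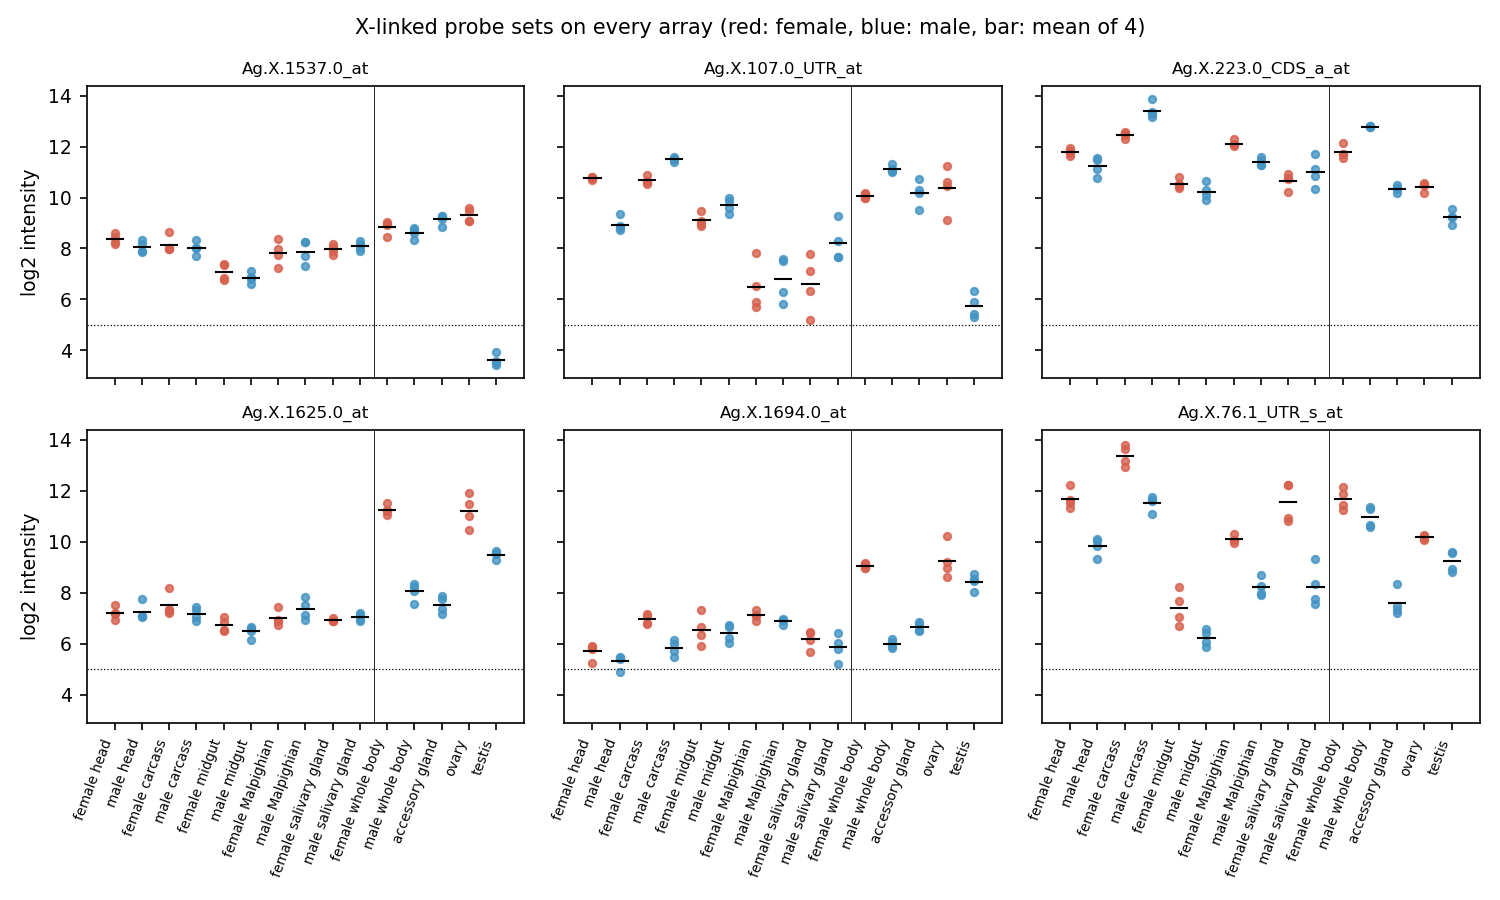
Log2 intensity (y axis) of 6 members on every array of the 15 groups (x axis; red, female; blue, male; bars, means of 4 arrays; dotted line, limit of log2 5; vertical line, somatic groups to the left). Ag.X.1537.0_at falls below the limit only in testis, Ag.X.1625.0_at and Ag.X.1694.0_at are high in both gonads, and Ag.X.76.1_UTR_s_at is higher in females in each somatic tissue.

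The ovary also lay below female carcass relative to the autosomal set, but by less and with members moving both ways. The median difference was -0.19 for members and 0.49 for the autosomal set. The X-linked minus autosomal difference was -0.68, and -0.37 with a limit of log2 6. Single autosomal arms, each set against the other 3, differed by -0.277 (3L) to 0.206 (2R). The scores of ovary and female carcass arrays differed by -0.615 ± 0.055 (SE), without overlap. Of the members 29 were higher (19.3%) and 42 lower (28%), where 48.6% and 25.1% of all tested probe sets and 37.6% and 20.8% of the autosomal set were called. With all 60 arrays quantile normalised and members chosen anew, 10.9% were higher and 43.7% lower, with no autosomal shares given beside them.

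Among members lower in ovary, Ag.X.354.1_at read 2.67, 2.62, 2.62 and 2.62 in ovary and 8.68, 9.21, 9.01 and 9.48 in female carcass. It was not detected in the ovary, and female carcass was at least 17.1-fold higher (adjusted p = 1.22e-08). It was detected in testis, at 6.47, 6.30, 7.26 and 7.05. The next were Ag.X.8.1_a_at (-4.88), Ag.X.106.0_UTR_a_at (-4.18), Ag.X.74.0_CDS_at (-3.90) and Ag.X.181.1_a_at (-3.58), each of them also lower in testis than in male carcass.

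The members most raised in ovary were Ag.X.1625.0_at (3.69 ± 0.36, 12.9-fold, adjusted p = 9.59e-06), Ag.X.461.0_CDS_at (3.49 ± 0.38), Ag.X.120.0_CDS_at (AGAP001045, 3.24 ± 0.21), Ag.X.144.0_UTR_at (3.16 ± 0.30) and Ag.X.623.0_CDS_at (AGAP000880, 3.08 ± 0.26). Ag.X.461.0_CDS_at read 9.91, 10.53, 10.55 and 8.85 in ovary, 6.25, 6.21, 6.74 and 6.69 in female carcass and 6.10, 6.12, 6.01 and 6.25 in testis. It was thus highest in ovary, with the fourth ovary array the lowest.

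Set side by side, 36 members were lower in both gonads than in the matching carcass (24%, against 14.9% of the autosomal set), 41 were lower in testis and not called in ovary (27.3%, against 11.2%), and 7 were lower in testis and higher in ovary (4.67%, against 1.62%). Higher in both were 2 members (1.33%, against 20.6%). Directly compared, testis was below ovary by a median of -0.83 for members and -0.38 for the autosomal set. Single autosomal arms, each set against the other 3, differed here by -0.090 (3L) to 0.264 (3R). Of the members 140 were detected in at least 1 gonad and tested. Of all 150, 67 were lower in testis than in ovary (44.7%) and 8 higher (5.33%), where 29.7% and 37.5% of all tested probe sets and 31.9% and 18.1% of the autosomal set were called. Without replicate 4, whose ovary array correlated least with the others, the X-linked minus autosomal difference between testis and ovary was -0.56 in place of -0.45. These arrays are those of the comparisons with carcass, so the values are not independent of them.

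The male accessory gland, a somatic part of the reproductive tract that was not used to choose the members, did not show the low values of the testis. Its median difference from male carcass was -0.03 for members and -0.14 for the autosomal set, and the array scores of the groups overlapped. Of the members 30 were higher (20%) and 37 lower (24.7%), against 23.8% and 36% of all tested probe sets and 20.1% and 28.3% of the autosomal set. With all arrays quantile normalised and members chosen anew, 31.0% were higher and 16.1% lower, with no autosomal shares given beside them. The X-linked minus autosomal difference was 0.11, and 0.25 without replicate 1. This comparison shares its male carcass arrays with that of the testis.

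**Figure D5:**
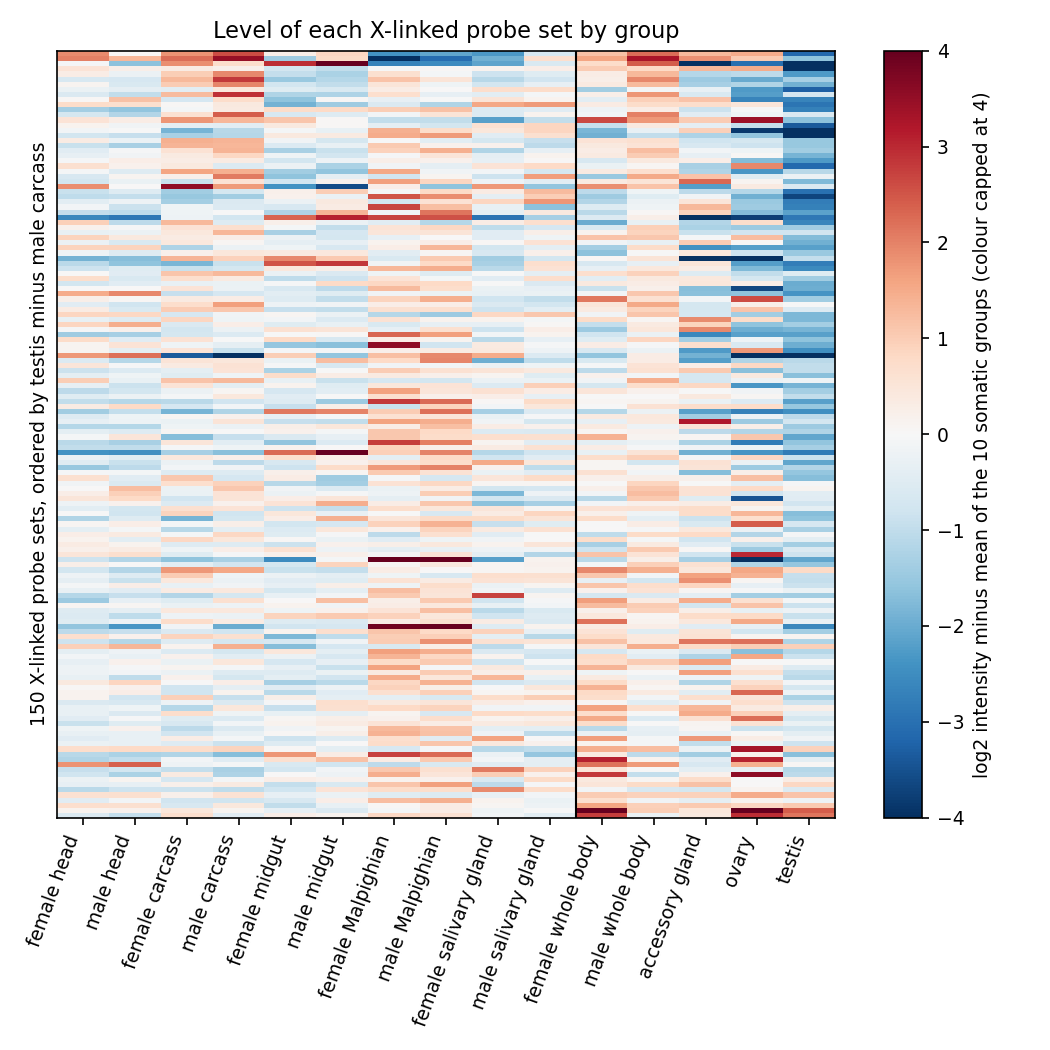
Mean log2 intensity of each of the 150 members (lines, ordered by testis minus male carcass) in the 15 groups (columns), relative to its mean over the 10 somatic groups left of the vertical line; colours are capped at 4 in either direction. The testis column is below 0 for nearly all members, while ovary and accessory gland hold both directions.

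Within the soma the members ranged widely, and their levels varied about as much as those of the autosomal set. The distance between the highest and lowest of the 10 group means had a median of 2.35, against 2.21 for the autosomal set, with extremes of 0.74 and 7.57. The largest distances belonged to Ag.X.82.0_UTR_a_at, Ag.X.102.0_CDS_at, Ag.X.76.1_UTR_s_at (AGAP001065), Ag.X.98.0_CDS_at (AGAP000367) and Ag.X.8.1_a_at, and the smallest to Ag.X.1305.0_at, Ag.X.1161.0_a_at (AGAP000829), Ag.X.1175.0_at, Ag.X.1625.0_at and Ag.X.1152.1_s_at. The highest mean was in the Malpighian tubules for 67 members (44.7%, against 37.8%) and in the carcass for 36 (24%, against 28.2%), followed by salivary gland (19), midgut (15) and head (13). Since tissues were normalised apart, these counts are given only beside the autosomal ones.

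Probe sets with the same identifier number mostly moved alike, but not always, also in somatic sex differences. Ag.X.106.0_CDS_a_at (AGAP000901) and Ag.X.106.0_UTR_a_at were at -1.04 and 0.41 in the midgut, female minus male. Ag.X.110.1_CDS_a_at (AGAP000943) and Ag.X.110.0_UTR_a_at were at 0.25 and -0.91 in the salivary gland. In all 6 pairs both probe sets were below male carcass in testis. Ag.X.110.1_CDS_a_at (AGAP000943) and Ag.X.110.0_UTR_a_at parted in the whole body, with female minus male differences of 1.13 and -0.88, and lay 2.53 and 0.26 above female carcass in the ovary. Ag.X.83.0_CDS_a_at and Ag.X.83.1_a_at (AGAP000952) also parted in the whole body. The first was not detected in females and at least 2.86-fold higher in males, the other was at 0.38, and both were higher in female carcass, by 1.82 and 1.68.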

How the data were processed

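Per the labels, the authors deposited GCRMA intensities on a linear scale. The methods state that arrays were standardised within tissues, both sexes together. The intensities of 60 arrays were taken as log2 without further normalisation. Control and *Plasmodium* probe sets were left out, and 16884 *Anopheles* probe sets were kept. The authors' own relative abundance columns served only to match gene identifiers to probe sets (tolerance 0.0006, at least 3 tissues, 1173 of 1352 genes matched). Members, gene lists and comparisons were chosen with earlier results of these data known.

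Each comparison was fitted with limma 3.58.1 (lmFit and eBayes, R 4.3.3) to probe sets detected in either group, at log2 5 or above on 3 of 4 arrays, with Benjamini-Hochberg adjustment over all of them and no replicate block. A call needed an adjusted p under 0.05 and a difference of at least 1. Fits were tested on simulated data, where the required recovery was lowered after a first trial fell just short of it. Against an undetected group, a fold was computed as the bright group's mean over the dim group's mean of, per array, the higher of its value and the limit, and given as "at least". The accessory gland comparison was added after the data were seen. The replicates are labelled as biological. Same-numbered arrays of the Malpighian tubules deviated together (correlations 0.151 to 0.331 for all 4 pairs), which was taken as pairing from the data alone. Blocking there left 9 and 11 members called. The number of arrays limits the precision. Named members were the most often called in each direction, the least different, the 5 most changed either way in each gonad, those nearest the limit, and those of extreme spread. Their adjusted p in the comparisons that picked them are descriptions. Functional groups could not be formed, since gene products were not used here.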

Additional observations from a re-analysis of the deposited data

Results flagged for a closer look

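In 5 of 114 sets of 4 arrays, 1 array stood apart from the other 3 by Dixon's criterion, about the share that chance gives (1 in 20). The score of 1 ovary array in the comparison of testis with ovary was 0.461, above the other ovary arrays. Ag.X.169.0_UTR_a_at (AGAP000752) had 1 low array in female Malpighian tubules at 7.70, and Ag.X.133.0_CDS_a_at (AGAP000672) 1 high array in female salivary gland at 8.61. Ag.X.1625.0_at had 1 high female carcass array at 8.20. For Ag.X.354.1_at the highest ovary array, at 2.67, stood apart among values far below the detection limit.

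Another 5 members were called female-biased in 1 somatic tissue and male-biased in another. They were picked by opposite calls on these arrays, so the limma F-test of sex by tissue could hardly fail. Its adjusted p is given as a description and adds no support. These were 3.33% of members, against 4.55% of the autosomal set. Ag.X.107.0_UTR_at (AGAP000749) was higher in female head by 1.83 and lower in female salivary gland, at -1.63 (F-test adjusted p = 8.32e-05). In female salivary gland it read 7.77, 5.19, 6.32 and 7.12 and in male 9.29, 7.68, 7.65 and 8.30, so that 1 female array overlapped the male range. Ag.X.116.0_CDS_at (AGAP000949) was at -1.35 in the midgut and 1.13 in the salivary gland (adjusted p = 2.81e-07), and Ag.X.369.0_CDS_at (AGAP000958) at -1.56 and 1.18 in the same tissues (adjusted p = 7.69e-05). Ag.X.78.0_CDS_at was at -1.63 in the carcass and 2.01-fold higher in the female Malpighian tubules (adjusted p = 1.32e-05). Ag.X.79.0_UTR_a_at was at 1.06 in the midgut and -1.18 in the salivary gland (adjusted p = 0.00816).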

How the results depend on the processing

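Alternatives were a limit of log2 4 or 6, detection on all 4 arrays, quantile normalisation of all 60 arrays, no _s_at, _x_at or _a_at probe sets, means for medians, tests over all *Anopheles* probe sets, moderated variances with a trend, a replicate block and leaving out each replicate. Added after seeing the data were members of mean somatic log2 7 or more, values under log2 5 set to 5, and the accessory gland. Members and autosomal probe sets were chosen anew wherever the limit, the arrays required, the normalisation, the suffixes or the replicates changed. Shares and medians under those settings are therefore of other sets than the main ones. None of the alternatives turned the direction of a named member's call. Among the members chosen after quantile normalisation the balance of calls was the other way in Malpighian tubules and accessory gland, with no autosomal balance given beside it. The X-linked minus autosomal difference between the sexes changed sign in carcass with means and in Malpighian tubules with log2 4.

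There were 89 members with log2 6 and 87 without the suffixed probe sets. X-linked minus autosomal in testis against male carcass was -1.29 (log2 4), -1.59 (quantile), -1.35 (means) and -1.08 (values set to 5), and -1.25 to -1.14 over replicates left out. In ovary against female carcass it was -0.84 (log2 4), -0.37 (log2 6), -0.58 (all 4 arrays), -0.78 (quantile), -0.83 (no suffixes), -0.49 (means) and -0.36 (bright members). In testis against ovary it was -0.57 (log2 4), -0.81 (log2 6), -0.66 (all 4 arrays), -0.92 (quantile), -0.79 (means) and -0.74 (bright members), and -0.56 to -0.46 over replicates left out. In accessory gland it was 0.31 without suffixes and 0.031 to 0.249 over replicates.

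Female minus male, X-linked minus autosomal, was -0.145 (log2 4), -0.077 (log2 6), -0.140 (quantile) and -0.120 (bright members) in salivary gland; -0.077 (log2 6), -0.142 (all 4 arrays), -0.146 (no suffixes), -0.051 (bright members) and -0.247 to -0.089 over replicates in whole body; -0.082 (means) in carcass; 0.080 (log2 4) in Malpighian tubules; and -0.00080 (log2 4) and -0.017 (quantile) in midgut.

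Shares in this paragraph are only of the members chosen under each setting, without autosomal shares beside them. With log2 4, 9.91% of members were female-biased in Malpighian tubules, 13.7% in salivary gland and 16.0% in whole body, 0.472% male-biased in head and 5.19% higher in testis. With log2 6, 2.25% were male-biased in head and 6.74% in salivary gland. With detection on all 4 arrays, 2.36% were male-biased in head and 0.787% higher in testis. Quantile normalisation gave 4.02% female-biased in head, 16.1% in whole body, 10.9% higher and 43.7% lower in ovary, 3.45% higher in testis than ovary, and 31.0% higher and 16.1% lower in accessory gland. Tests over all probe sets gave 1.33% female-biased and 0% male-biased in head, 2.67% and 6% in midgut, and male-biased shares of 6% in carcass, 4.67% in Malpighian tubules and 4.67% in salivary gland. Over replicates left out, 1.27% to 3.21% were female-biased and 0% to 1.24% male-biased in head, 6.21% to 10.1% male-biased in salivary gland, and 1.91% to 2.53% higher in testis.

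The replicate block kept counts within 1.5 times (84 members lower in testis, 30 higher in ovary, 19 male-biased in midgut). Among named members it ended only the head call of Ag.X.75.0_CDS_at (AGAP000654, 1.07). Of the 10 comparisons, every array correlated best with its own number in midgut and Malpighian tubules. Pairing was taken only for the tubules, with correlations from 0.151, since those of the midgut were 0.072 to 0.103. In 25 instances a named member's call was lost, all in female against male comparisons. Dim members near the limit, undetected genes and 2 matched markers limit what the arrays can show.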
